A study of Mus musculus with 15 samples.

Results

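Levels of 8 mouse genes of cholesterol synthesis and its control were followed in whole lung after bleomycin (BLM): Hmgcs1, Idi1, Fdft1, Sqle, Lss, Cyp51, Insig1 and Srebf2. They were picked by gene symbol, and all 8 were found among the 33340 genes of the count table. Of these, 6 encode enzymes, Insig1 encodes a sterol sensor and Srebf2 a transcription factor, and none encodes an uptake receptor, so uptake genes are described separately as neighbours of the pathway.

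The data were polyA RNA-seq libraries from whole lungs of C57BL/6 mice, with 4 libraries for each of days 0, 7 and 14 and 3 for day 21. Per the study's methods the mice were adult males, and no transgene or mutation is named for this time course in the labels. The day 7, day 14 and day 21 mice had been given 5 U/kg BLM, an agent that breaks DNA and leads to lung scarring, through the trachea. Day 0 replicates 1 to 3 are labelled as having no treatment, whereas day 0 replicate 4 is titled a control but its treatment label names bleomycin. No group with instilled vehicle was analysed here, so the drug, the instillation and the passage of time cannot be told apart. A whole-lung library also cannot tell a change in the RNA of a cell from a change in how many such cells the lung held.

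Mammalian cells build cholesterol from acetyl-CoA through the mevalonate pathway, in which isoprene units are joined to squalene and squalene is closed into the ring of lanosterol. The genes of the pathway are turned on together by SREBP2, the product of Srebf2, a membrane protein of the endoplasmic reticulum that is cut free in the Golgi when membrane sterol is low. INSIG1 holds SREBP2 back when sterol is plentiful, and is itself an SREBP target. In the lung, type 2 cells need lipid for surfactant, macrophages take up and export cholesterol from surfactant and dead cells, and dividing cells need it for new membrane.

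Total counts ranged from 15652008 to 18020661 per library, and each of the 8 genes had between 337 and 4347 counts in every library. The tissue label held at day 0, where 9 alveolar type 2 cell genes summed to between 29283 and 39514 CPM (counts scaled to a library of common size) and 6 endothelial genes to between 2832 and 3284 CPM. The share of counts from mitochondrial genes split day 0, at 2.28% and 2.31% in replicates 1 and 2 and at 4.22% and 4.04% in replicates 3 and 4. It lay between 2.03% and 2.15% at day 7, was 2.1% in day 14 replicate 1 and 3.74% to 4.14% in the other day 14 libraries, and lay between 2.66% and 4.01% at day 21. Day 21 replicate 2 stood apart for these genes: it was the highest day 21 library for 8 of the 8. The day 21 values of the 8 genes are given with and without it.

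Promoter sequence is shown for 3 of the genes, to let the sequence be read beside the levels: Hmgcs1 and Cyp51, the enzymes upregulated at day 14 as well as day 7, and Srebf2, the factor itself, which fell after day 7. RefSeq promoter windows (build GRCm38.p6) matched 6 of the 8 genes, Fdft1 and Sqle being the exceptions. In each window the 250 bases before the RefSeq start were searched on both strands for 4 motifs, which were TCACNCCAC and ATCACNNCA, forms of the sterol regulatory element to which SREBP binds, the NF-Y box CCAAT and the Sp1 box GGGCGG. The form ATCACNNCA was chosen after the sequences had been seen, and the first 2 forms overlap in part. Sequences read 5′ to 3′ along the gene's strand, bases that lie inside the GENCODE gene model are not shown, and capitals mark matches to TCACNCCAC, ATCACNNCA or CCAAT, on either strand.
Hmgcs1, chr13:119690101-119690350, plus strand: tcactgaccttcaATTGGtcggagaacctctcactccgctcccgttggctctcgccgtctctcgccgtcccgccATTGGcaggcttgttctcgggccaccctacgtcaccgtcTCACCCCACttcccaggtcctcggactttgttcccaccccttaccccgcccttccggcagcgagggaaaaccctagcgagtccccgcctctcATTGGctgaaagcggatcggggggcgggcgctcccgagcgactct
Cyp51, chr5:4104747-4104947, minus strand: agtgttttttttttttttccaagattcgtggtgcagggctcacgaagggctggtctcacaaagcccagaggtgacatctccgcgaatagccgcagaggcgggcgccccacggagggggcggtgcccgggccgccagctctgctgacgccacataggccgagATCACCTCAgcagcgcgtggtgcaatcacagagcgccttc
Srebf2, chr15:82147019-82147180, plus strand: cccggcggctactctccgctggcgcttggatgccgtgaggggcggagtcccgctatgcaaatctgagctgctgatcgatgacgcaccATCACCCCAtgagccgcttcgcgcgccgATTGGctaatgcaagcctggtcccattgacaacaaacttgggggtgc

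Hmgcs1 held TCACCCCAC at positions -137 to -129 from the RefSeq start, a form that occurred in 1.05% of all 32851 windows. Cyp51 held ATCACCTCA at -89 to -81 and Srebf2 held ATCACCCCA at -163 to -155, matches to a form found in 2.3% of windows. Lss, Idi1 and Insig1 held neither form. Of the 14 other synthesis enzymes that matched, 0 held TCACNCCAC and 1 held ATCACNNCA. These enzymes were counted by gene, with a match in any window of the gene, whereas the shares are of single windows. The CCAAT box was in 6 of 6 members against 33.8% of all windows, and in 12 of the 14 other enzymes. That of Cyp51, at -29 to -25, lies in the bases not shown. GGGCGG was likewise in 6 of 6 members and 12 of 14 other enzymes, against 32.7% of windows. These are matches of letters in a window and not sites shown to be bound.

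Levels between genes were compared per length, as RPKM, which is CPM divided by exon length in kilobases, over the 15 libraries. Srebf2 had the highest mean level at 27.3 RPKM, followed by Insig1 at 23.7, Hmgcs1 at 22.3, Cyp51 at 16.0, Fdft1 at 11.5, Idi1 at 11.3 and Sqle at 10.5 RPKM. Lss was lowest at 3.38 RPKM, over an annotated exon length of 10787 bases that joins all its transcripts. All values below are CPM scaled by TMM factors, which compare one gene between libraries and not genes with each other.

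The comparison with day 0 asked whether these genes differed at 7, 14 and 21 days after BLM. Fold changes and standard errors come from an edgeR quasi-likelihood fit of all 15 libraries, with p-values adjusted by Benjamini-Hochberg over the 17457 genes tested. A gene was called upregulated or downregulated where its fold change was over 1.5 and its adjusted p was under 0.05. At day 7, 5 of the 8 genes were upregulated and 0 were downregulated, where 8.78% of all genes tested were upregulated and 7.36% downregulated. At day 14, 2 of the 8 were upregulated, against 12% of all genes, and at day 21, 1 of the 8, against 12.4%. None of the 8 was downregulated at day 14 or day 21, against 11.2% and 10.1% of all genes. The median log2 fold change of the 8 was 0.73 at day 7, 0.26 at day 14 and 0.19 at day 21, where the median of all genes tested was 0.01, 0.02 and 0.02. The day 21 median turned to -0.18 without day 21 replicate 2, and the day 14 median was 0.13 among the libraries over 3.5% mitochondrial share. The 3 comparisons share the day 0 libraries and are therefore not independent of each other.

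**Figure D1:**
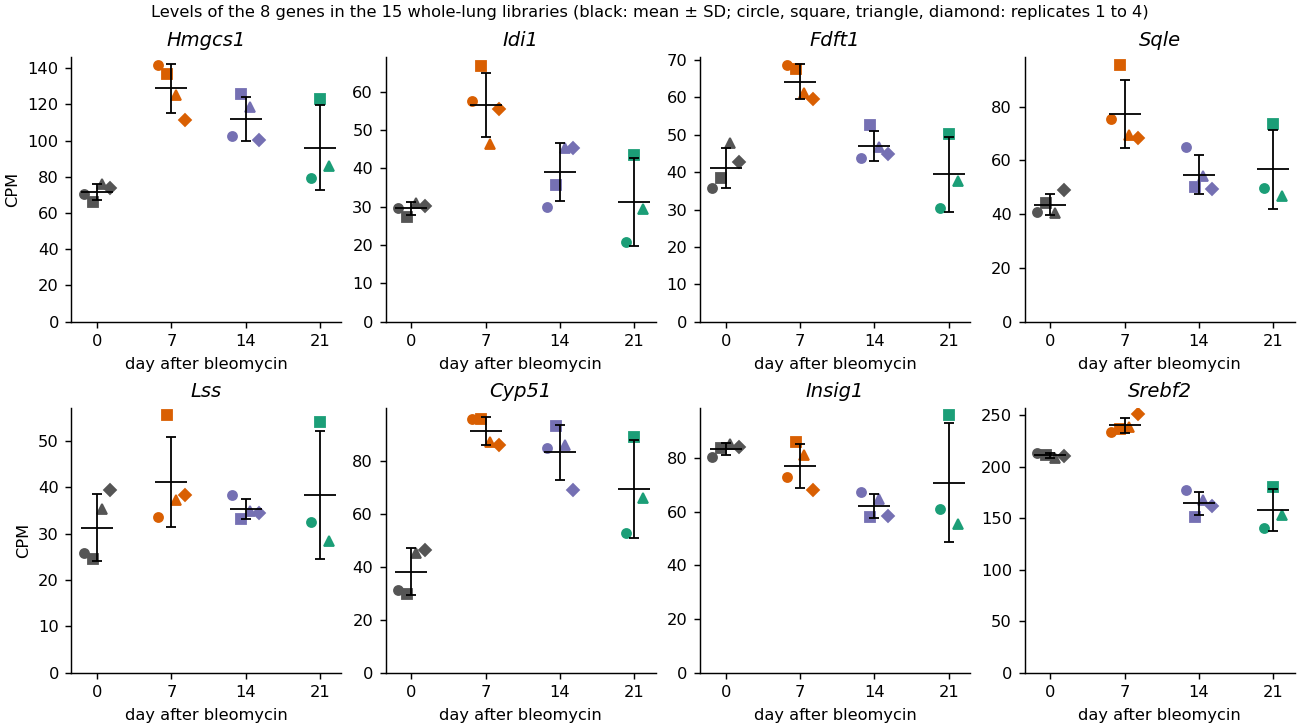
Levels of the 8 genes in CPM (vertical axes, starting at 0) by day after BLM, with each library as a symbol (circle, square, triangle and diamond for replicates 1 to 4) and the mean ± SD in black. The day 7 libraries lie above every day 0 library for 6 of the genes, and day 21 replicate 2 (square) is the highest of its day in each panel.

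Cyp51, the demethylase that starts the trimming of lanosterol towards cholesterol (ENSMUSG00000001467, chr5:4081145-4104746, minus strand), had the largest fold change of the 8 on each of the 3 days. It measured 31.2, 29.8, 45.1 and 46.5 CPM at day 0 and 95.8, 95.6, 87.1 and 86.0 CPM at day 7. It measured 84.6, 93.1, 85.9 and 68.8 CPM at day 14 and 52.6, 89.0 and 66.0 CPM at day 21. Every library after BLM lay above every day 0 library, and the day 0 values split in the same way as the mitochondrial share, replicates 1 and 2 being lower. Summed cardiac muscle genes split day 0 likewise, at 27.1 and 46.1 CPM in replicates 1 and 2 and at 229.1 and 177 CPM in replicates 3 and 4, as did summed clock genes, at 1272 and 1264 against 1996 and 1835 CPM. The libraries highest in cardiac muscle genes at day 7 (replicate 4, 565.5 CPM) and day 21 (replicate 1, 690.9 CPM) had the lowest Cyp51 of their day. The part of these genes in the split was not tested. The log2 fold change was 1.26 (SE 0.171, adjusted p = 0.000182) at day 7, 1.12 (SE 0.171, adjusted p = 0.00018) at day 14 and 0.86 (SE 0.182, adjusted p = 0.00243) at day 21. Among the libraries under 2.5% mitochondrial share the day 7 value was 1.56, and among those over 3.5% the day 14 value was 0.84, and Cyp51 was upregulated in both. Without day 21 replicate 2 the day 21 value was 0.60, and Cyp51 was still upregulated.

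Hmgcs1, the cytosolic synthase that makes HMG-CoA at the head of the pathway (ENSMUSG00000093930, chr13:119690379-119708260, plus strand), was upregulated at days 7 and 14. Its levels were 70.3, 66.3, 76.2 and 73.6 CPM at day 0 and 141.9, 136.7, 125.4 and 111.5 CPM at day 7. They were 102.5, 125.7, 118.8 and 100.5 CPM at day 14 and 79.3, 122.8 and 85.9 CPM at day 21. The day 0 libraries lay below every later library, and at day 21 replicate 2 stood well above replicates 1 and 3. The log2 fold change was 0.85 (SE 0.133, adjusted p = 0.000502) at day 7 and 0.64 (SE 0.133, adjusted p = 0.00182) at day 14. The day 14 fold fell under the 1.5-fold threshold without day 0 replicate 2 (0.58) or without day 14 replicate 2 (0.56). At day 21 the log2 fold change of 0.42 (SE 0.142) passed the adjusted p (0.0343) but not the 1.5-fold threshold. Without day 21 replicate 2 that value was 0.17 and no longer passed, and over all alternatives its adjusted p ran from 0.0214 to 0.368.

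Idi1, the isomerase that converts isopentenyl diphosphate into its reactive partner (ENSMUSG00000058258, chr13:8885501-8892451, plus strand), was upregulated at day 7 alone of the 3 days. It measured 29.6, 27.3, 31.1 and 30.3 CPM at day 0 and 57.7, 66.8, 46.5 and 55.4 CPM at day 7, with no overlap. At day 14 the libraries measured 29.9, 35.7, 45.4 and 45.5 CPM, and at day 21 they measured 20.8, 43.5 and 29.4 CPM. Both of those days overlapped day 0. The log2 fold change was 0.94 (SE 0.190, adjusted p = 0.00297) at day 7, 0.40 (SE 0.190, adjusted p = 0.116) at day 14 and 0.08 (SE 0.205, adjusted p = 0.807) at day 21. Without day 21 replicate 2 the day 21 value was -0.27.

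Fdft1, squalene synthase and the first enzyme committed to sterols (ENSMUSG00000021273, chr14:63145150-63179578, minus strand), was also upregulated at day 7. Its levels were 35.7, 38.5, 47.9 and 42.6 CPM at day 0 and 68.6, 67.6, 61.1 and 59.5 CPM at day 7. They were 43.7, 52.7, 46.6 and 44.9 CPM at day 14 and 30.4, 50.1 and 37.7 CPM at day 21. Day 7 did not overlap day 0, whereas days 14 and 21 did. The log2 fold change was 0.64 (SE 0.136, adjusted p = 0.00394) at day 7, 0.19 (adjusted p = 0.307) at day 14 and -0.06 (adjusted p = 0.784) at day 21, which was -0.31 without day 21 replicate 2. The day 7 fold fell under 1.5 without day 0 replicate 1 (0.55) or replicate 2 (0.58). Of the exon bases of Fdft1, 18.3% are shared with exons of Ctsb on the opposite strand, and reads from those bases cannot be assigned without strand.

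Sqle, squalene epoxidase, which makes the oxidised squalene that is then cyclised (ENSMUSG00000022351, chr15:59315077-59331192, plus strand), measured 40.8, 44.1, 40.5 and 48.8 CPM at day 0. It reached 75.5, 95.6, 69.5 and 68.4 CPM at day 7, each above every day 0 library. At day 14 it measured 65.0, 50.1, 54.2 and 49.3 CPM and at day 21 49.5, 73.6 and 46.8 CPM. The day 14 libraries still lay above every day 0 library, replicate 4 by a narrow margin, and day 21 overlapped day 0. Sqle was upregulated at day 7 with a log2 fold change of 0.83 (SE 0.152, adjusted p = 0.00153). The values of 0.33 (SE 0.151, adjusted p = 0.110) at day 14 and 0.38 (SE 0.162, adjusted p = 0.0915) at day 21 did not pass. The day 21 value of Sqle was 0.10 without day 21 replicate 2.

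Lss, lanosterol synthase, which closes the sterol rings (ENSMUSG00000033105, chr10:76531588-76557138, plus strand), was not called on any day. It measured 25.8, 24.5, 35.4 and 39.4 CPM at day 0 and 33.5, 55.5, 37.3 and 38.4 CPM at day 7. At day 14 it measured 38.4, 33.2, 35.0 and 34.5 CPM and at day 21 32.6, 54.1 and 28.5 CPM. The days overlapped, day 0 was split like the mitochondrial share, and 1 library stood high at day 7 and 1 at day 21. The log2 fold change was 0.40 (SE 0.207, adjusted p = 0.172) at day 7, 0.17 (adjusted p = 0.553) at day 14 and 0.29 (adjusted p = 0.345) at day 21, which was -0.077 without day 21 replicate 2. With 1 library left out, the day 7 value of Lss ran from 0.22 (no day 7 replicate 2) to 0.51 (no day 0 replicate 4), and the day 14 value ran from 0.047 (no day 0 replicate 2) to 0.28 (no day 0 replicate 4). Among libraries under 2.5% mitochondrial share, which keeps day 0 replicates 1 and 2, the day 7 value was 0.70 and passed (adjusted p = 0.0392, with a range of 0.0392 to 0.483 over all alternatives).

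Insig1, the sterol-sensing brake on SREBP processing (ENSMUSG00000045294, chr5:28071363-28078662, plus strand), was not among the upregulated genes on any day. It measured 80.2, 83.8, 85.1 and 84.1 CPM at day 0 and 72.8, 86.1, 81.0 and 68.0 CPM at day 7. At day 14 it measured 67.2, 58.0, 64.5 and 58.5 CPM and at day 21 60.8, 96.2 and 55.3 CPM. The day 14 libraries lay below every day 0 library, while day 7 overlapped day 0 and day 21 held both the highest and the lowest value of the series. The log2 fold change was -0.11 (SE 0.141, adjusted p = 0.590) at day 7, -0.42 (SE 0.142, adjusted p = 0.0308) at day 14 and -0.23 (SE 0.153, adjusted p = 0.271) at day 21. The day 14 value passed the adjusted p and not the 1.5-fold threshold, and its adjusted p ran from 0.00555 to 0.0687 over the alternatives. Without day 21 replicate 2 the day 21 value was -0.56.

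Srebf2, which encodes SREBP2 itself (ENSMUSG00000022463, chr15:82147181-82205379, plus strand), had the smallest day 0 spread for its mean, at 213.9, 211.6, 208.2 and 210.4 CPM. It measured 233.9, 236.9, 238.8 and 251.3 CPM at day 7, every library above day 0. It then measured 177.7, 150.8, 167.5 and 162.1 CPM at day 14 and 140.7, 180.3 and 153.1 CPM at day 21, every library below day 0. The day 7 log2 fold change of 0.19 (SE 0.0913, adjusted p = 0.146) did not pass the test. At day 14 it was -0.36 (SE 0.0915, adjusted p = 0.00730) and at day 21 -0.42 (SE 0.0995, adjusted p = 0.00539), so Srebf2 fell by the adjusted p on both days, by less than 1.5-fold. Without day 21 replicate 2 the day 21 value was -0.56. Among libraries over 3.5% mitochondrial share the day 14 value was -0.40, which did not pass (adjusted p = 0.0678, with a range of 0.000194 to 0.0678 over all alternatives). The transcript level says nothing of how much SREBP2 protein was cut and active, which was not measured.

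By non-overlap of libraries, 6 of the 8 genes lay above day 0 in every library at day 7, where 17.6% of all genes tested did, and 0 lay below, against 13.2%. At day 14, 3 lay above and 2 below, against 16.8% and 14.4% of all genes, and at day 21, 2 lay above and 1 below, against 19.4% and 16%. By the adjusted p alone, 5 were higher and 0 lower at day 7 against 14.2% and 10.8% of all genes. At day 14 the counts were 2 higher and 2 lower against 17.9% and 15.2%, and at day 21 they were 2 higher and 1 lower against 16.5% and 13.3%. When day 21 replicate 2 was left out, Hmgcs1 no longer passed at day 21 (0.17, adjusted p = 0.368) and Insig1 did, as lower (-0.56, adjusted p = 0.00328). Read against all genes, the share of the 8 upregulated was well above the background at day 7, higher by 1 gene at day 14 and at the background at day 21.

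The later days were also compared with each other. Between day 14 and day 7, 0 of the 8 genes were called, against 6% of all genes tested, although each of the 8 had a log2 fold change below 0, between -0.55 and -0.13. At day 14, 5 of them lay below every day 7 library, against 8.36% of all genes. Srebf2 was the only one of the 8 to pass the adjusted p, as 3.87% of all genes did in that direction (-0.55, SE 0.0916, adjusted p = 0.00564). Leaving out day 14 replicate 1 gave 1 called gene, Sqle.

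Between day 21 and day 7, 3 of the 8 genes were downregulated, against 4.34% of all genes, and 0 were upregulated, against 5.2%. These were Idi1 (-0.86, SE 0.208, adjusted p = 0.0166), Fdft1 (-0.70, SE 0.149, adjusted p = 0.00923) and Srebf2 (-0.60, adjusted p = 0.00283), and each lay below every day 7 library, as 13.4% of all genes did. The count hung on single day 21 libraries, being 0 without replicate 1 and 5 without replicate 2. The call of Srebf2 was also lost without day 7 replicate 4 (-0.58) and with mitochondrial share in the fit (-0.54), its fold falling under 1.5. Between day 21 and day 14, 0 of the 8 genes were called, and edgeR called 0 of the 17457 genes, with 1714 at an unadjusted p under 0.05, where DESeq2 called 106 genes.

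In the order of mean levels, day 7 came first for Hmgcs1, Idi1, Fdft1, Sqle, Lss, Cyp51 and Srebf2, and day 0 came first for Insig1. Neighbouring days in that order differed by the adjusted p in 3 cases: Hmgcs1 and Cyp51 between day 21 and day 0, and Srebf2 between day 0 and day 14. The other neighbouring days did not pass the adjusted p. Of these, the libraries did not overlap for Idi1 and Fdft1 between day 7 and day 14, for Srebf2 between day 7 and day 0 and for Sqle between day 14 and day 0, and they overlapped for the rest.

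The rest of the mevalonate and sterol pathway was read from a list of 15 further enzymes, all of which passed the filter. At day 7, 3 of the 15 were upregulated, 0 were downregulated and 12 were not called, where 8.78% of all genes were upregulated and 7.36% downregulated. They were Mvd (log2 fold change 0.77, adjusted p = 0.000452), the last step to isopentenyl diphosphate, Hsd17b7 (1.38, adjusted p = 0.000428), a ketoreductase of the C4 demethylation, and Dhcr7 (0.83, adjusted p = 0.00377), which makes cholesterol from 7-dehydrocholesterol. Mvd (0.86, adjusted p = 8.1e-05), Hsd17b7 (1.46, adjusted p = 0.000123) and Dhcr7 (0.73, adjusted p = 0.00517) were upregulated at day 14, 3 of the 15 against 12% of all genes. At day 21 Mvd (0.73, adjusted p = 0.000606) and Hsd17b7 (1.59, adjusted p = 0.00012) were, 2 of the 15, which was close to the 12.4% of all genes. The day 14 call of Dhcr7 was lost in 2 of 19 alternative fits. The median of the 15 was 0.35, 0.13 and -0.01 at days 7, 14 and 21, where that of all genes tested was 0.01, 0.02 and 0.02.

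Among these enzymes Hsd17b7 had the largest fold change on each of the 3 days. It measured 12.6, 12.7, 13.5 and 16.0 CPM at day 0 and 35.0, 44.3, 32.5 and 31.1 CPM at day 7. It measured 53.1, 42.0, 29.8 and 25.8 CPM at day 14 and 36.4, 52.9 and 33.9 CPM at day 21. Every library after BLM lay above every day 0 library. The later days did not differ by the test for Hsd17b7, and replicates 1 and 2 were the highest at day 14.

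Counting Hmgcs1, Idi1, Fdft1, Sqle, Lss and Cyp51 with the 15, 21 enzymes were described, of which 8 were upregulated at day 7, 5 at day 14 and 3 at day 21, and 0 were downregulated on any of these days. Over all genes tested 8.78%, 12% and 12.4% were upregulated and 7.36%, 11.2% and 10.1% downregulated, so the share of the 21 at day 21 was close to the background. Their median log2 fold change was 0.46, 0.19 and 0.05. Fdps, which joins isoprene units to farnesyl diphosphate, was low at 1.2 to 5.5 CPM in the 15 libraries and was not called against day 0, but it was called higher at day 21 than at day 7 (1.24, adjusted p = 0.0379). It was named after its values had been seen, and reads that align to several places had been left out before counting.

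**Figure D2:**
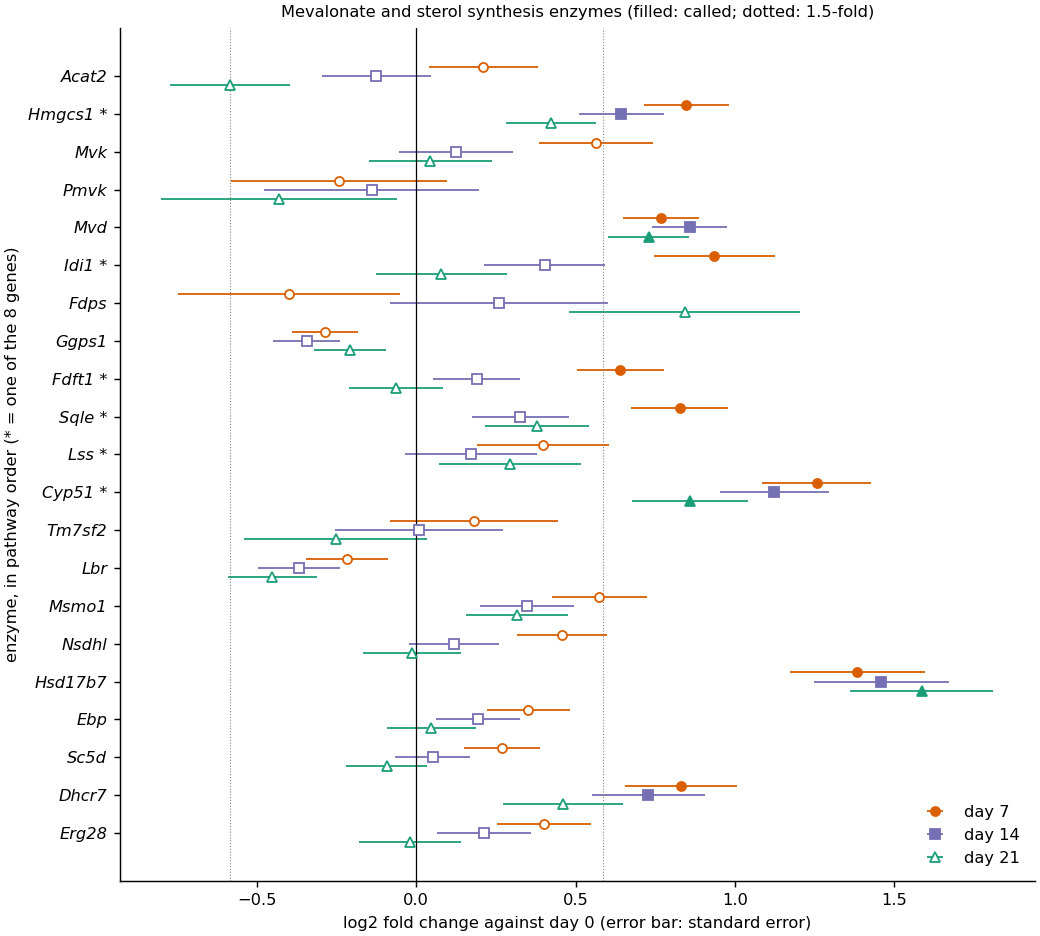
Log2 fold change against day 0 (horizontal axis, error bars are standard errors) of the 21 enzymes in pathway order, at day 7 (circles), day 14 (squares) and day 21 (triangles), with filled symbols for genes called and dotted lines at 1.5-fold. Filled symbols lie only to the right, 8 at day 7, 5 at day 14 and 3 at day 21.

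The machinery that senses sterol and cuts SREBP was described by 10 genes, of which 0 were called on any of the 3 days, where 8.78%, 12% and 12.4% of all genes were upregulated and 7.36%, 11.2% and 10.1% downregulated. In a list of 10 genes a count of 0 lies close to those shares. The medians of their log2 fold changes were 0.03, 0.01 and 0.02. The most abundant of them in CPM was Mbtps1, the protease that makes the first cut of SREBP, with log2 fold changes of -0.09, -0.24 and -0.12 (adjusted p = 0.566, 0.104 and 0.472). Next came Rnf145, a ubiquitin ligase of the endoplasmic reticulum, at -0.15, -0.44 and -0.48 (adjusted p = 0.259, 0.00246 and 0.00273), which passed the adjusted p at days 14 and 21 and not the 1.5-fold threshold. By the adjusted p alone 1, 1 and 2 of the 10 were higher at days 7, 14 and 21 and 0, 1 and 1 lower, close to the 14.2%, 17.9% and 16.5% of all genes higher and the 10.8%, 15.2% and 13.3% lower. The higher ones, named after their values had been seen, were Erlin2, a membrane protein of the endoplasmic reticulum, at 0.58, 0.54 and 0.49 (adjusted p = 0.00104, 0.000936 and 0.00329), and at day 21 Mbtps2, the protease of the second cut, at 0.45 (adjusted p = 0.0163).

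Uptake and transport inside the cell, a list of 16 genes, did not share 1 direction. At day 7, 4 were upregulated and 2 downregulated, against 8.78% and 7.36% of all genes. Those upregulated were the lipoprotein receptors Lrp1 (0.64, adjusted p = 0.0287) and Lrp8 (1.30, adjusted p = 0.0271), Lipa, the lysosomal acid lipase (0.63, adjusted p = 0.00524), and Npc2, which carries cholesterol out of lysosomes (0.71, adjusted p = 0.0139). Mylip, a ubiquitin ligase induced through LXR (-0.71, adjusted p = 0.0136), and Gramd1a, a carrier from plasma membrane to endoplasmic reticulum (-0.67, adjusted p = 0.0302), were downregulated.

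At day 14, 5 of the 16 were upregulated, Lrp1 (0.69), Lrp8 (1.94), the HDL receptor Scarb1 (0.72), Lipa (1.23) and Npc2 (0.61), and 1 was downregulated, Vldlr (-0.61). At day 21, 5 were upregulated, Lrp1 (1.03), Lrp8 (2.15), Scarb1 (1.38), Mylip (0.62) and Lipa (1.12), and 1 was downregulated, Gramd1c (-0.60). Over all genes 12% were upregulated and 11.2% downregulated at day 14, and 12.4% and 10.1% at day 21, so 1 downregulated of 16 was not above the background on either day. Scarb1 measured 88.8, 96.6, 124.3 and 113.9 CPM at day 0 and 216.1, 378.9 and 234.2 CPM at day 21, where replicate 2 was again the highest. The day 7 call of Lrp8 was lost in 8 of 19 alternative fits, those of Lrp1 and Gramd1a in 7, that of Lipa in 5, that of Mylip in 3 and that of Npc2 in 1. The day 14 call was lost in 9 of 19 for Npc2, 4 for Vldlr, 3 for Lrp1 and 1 each for Lrp8 and Scarb1, and the day 21 call in 7 of 17 for Mylip and 1 for Gramd1c. Adding mitochondrial share to the fit gave day 7 values of -0.14 for Gramd1a and 0.39 for Lrp1, and among libraries under 2.5% mitochondrial share the day 7 value of Lipa was 0.40. Without day 14 replicate 1 the day 14 value of Lrp1 was 0.35, and without day 21 replicate 1 the day 21 value of Mylip was 0.38.

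Of 6 genes that export sterol or answer to LXR, the oxysterol receptor, 0 were called at day 7, 1 was upregulated at day 14, and 2 were upregulated and 1 downregulated at day 21. Over all genes the shares were 12% upregulated and 11.2% downregulated at day 14 and 12.4% and 10.1% at day 21. Apoe, the lipoprotein that accepts cellular cholesterol, was upregulated at day 14 (1.96, adjusted p = 0.000185) and day 21 (1.94, adjusted p = 0.000346). Apoe measured 758.5, 729.5, 894.7 and 652.8 CPM at day 0 and 5095.5, 2927.0, 1642.9 and 2168.9 CPM at day 14, a wide spread that did not overlap day 0. At day 7 it measured 1613.6, 1056.5, 1447.4 and 1025.7 CPM, each above every day 0 library, and did not pass the adjusted p (0.76, adjusted p = 0.0671). At day 21 Abca1, the pump that loads cholesterol onto apolipoproteins, was upregulated (0.87, adjusted p = 0.00136) and Apoc1 was downregulated (-1.29, adjusted p = 0.0371), a call lost in 5 of 17 alternative fits. Apoe and Abca1 were also called higher at day 14 than at day 7 (1.2 and 0.65) and at day 21 than at day 7 (1.18 and 1.08).

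Among 8 genes for cholesterol esters and oxysterols, 2 were upregulated and 2 downregulated at both day 7 and day 14, against 8.78% and 7.36% of all genes at day 7 and 12% and 11.2% at day 14. Cyp7b1, an oxysterol hydroxylase, had log2 fold changes of 2.67, 1.91 and 2.42 at days 7, 14 and 21 (adjusted p = 8e-06, 0.000026 and 8e-06). Ch25h, which makes 25-hydroxycholesterol, an oxysterol that blocks SREBP processing, had 1.37, 1.75 and 1.99 (adjusted p = 0.0239, 0.0042 and 0.00281). Its day 7 call was lost in 6 of 19 alternative fits, with adjusted p up to 0.102, and its day 14 call in 1. The hydroxylases Cyp27a1 (-1.2, -1.31 and -1.45) and Cyp39a1 (-0.65, -1.27 and -1.48) were downregulated on the 3 days, and Soat1, the enzyme of cholesterol ester storage, at day 21 (-0.63, adjusted p = 0.0184). The day 7 call of Cyp27a1 was lost in 1 of 19 alternative fits and the day 21 call of Soat1 in 2 of 17. Cyp7b1 measured 2.7, 3.6, 3.6 and 3.6 CPM at day 0 and 21.3, 27.5, 16.4 and 20.8 CPM at day 7.

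**Figure D3:**
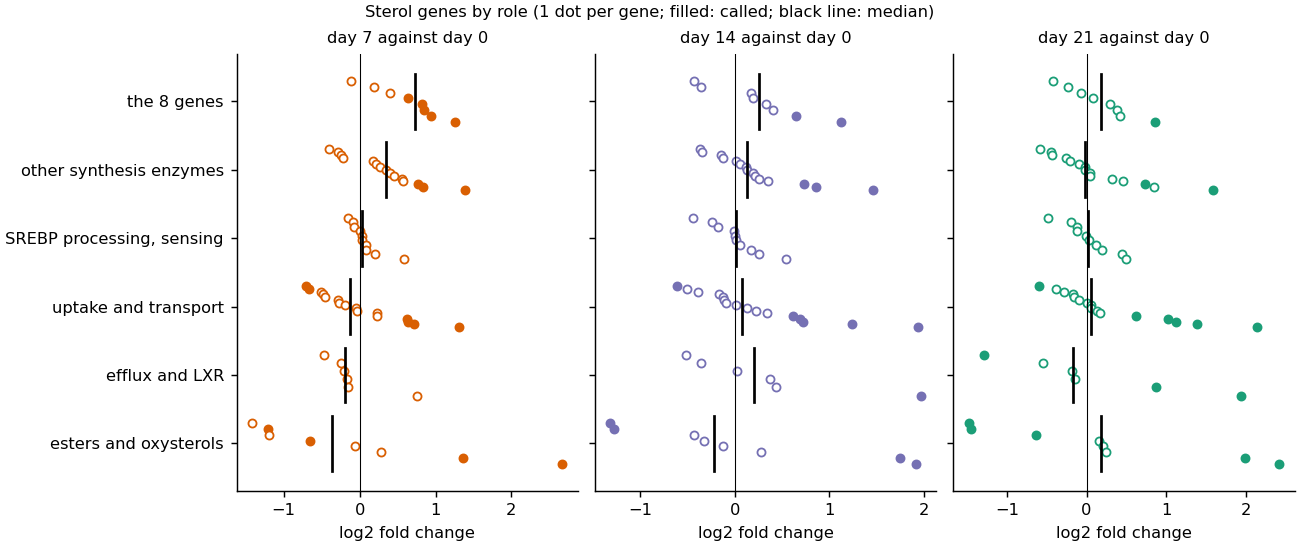
Log2 fold changes against day 0 (horizontal axis) of the 8 genes and of 5 lists of sterol genes by role, 1 dot per gene, filled where called, with the median of each list as a black line, in 1 panel per day. The 2 synthesis lists lie mostly right of 0 at day 7, at medians of 0.73 and 0.35, and the processing list stays near 0.

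The 8 genes were then compared among themselves across libraries, as a description with no test, since the libraries share day, depth and scaling. Over the 15 libraries the 28 pairs had a median Pearson r of 0.608 in log2 CPM, from -0.240 to 0.944, and 25 were positive. The closest pair was Hmgcs1 and Cyp51 and the most opposed was Cyp51 and Insig1. With each day's mean taken out, the 28 pairs had a median r of 0.574, from 0.336 to 0.884, and 28 were positive. Those values rested on day 21 replicate 2: without it the within-day median over 14 libraries was 0.17, from -0.52 to 0.81, and 20 of the 28 were positive. Insig1 had an r of 0.181 with the mean of the other 7 over all libraries and of 0.804 within days, or 0.342 without that library. For Srebf2 the values were 0.394 and 0.579, or -0.117 without it.

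Of 12237 other genes with a mean of at least 5 CPM, the 10 whose log2 CPM followed the mean of the 8 most closely over 15 libraries had a Pearson r between 0.841 and 0.938. Of the 10, 4 were in the list of other synthesis enzymes: Nsdhl (0.938), Msmo1 (0.897), Mvk (0.859) and Sc5d (0.843). The 50 closest genes held the same 4 and no further gene of the sterol lists. The remaining enzymes of that list had an r from -0.297 (Ggps1) to 0.680 (Erg28). The other genes among the 10 were Aacs (0.902), which activates acetoacetate for lipid synthesis, Fads2 (0.883), a fatty acid desaturase, Arhgef16 (0.875), Cygb (0.853), Olfml3 (0.847) and Mapk13 (0.841). Nsdhl, the dehydrogenase of the C4 demethylation, measured 18.3, 17.4, 23.6 and 21.5 CPM at day 0 and 26.3, 31.6, 24.9 and 28.1 CPM at day 7, and was not called. Within days the r was 0.907 for Nsdhl, 0.842 for Msmo1, 0.836 for Sc5d and 0.695 for Mvk, and between 0.424 (Olfml3) and 0.717 (Arhgef16) for the other 6. For the 4 enzymes the within-day r without day 21 replicate 2 was 0.853, 0.778, 0.492 and 0.693, and that of the other 6 lay between 0.130 (Cygb) and 0.779 (Aacs).

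**Figure D4:**
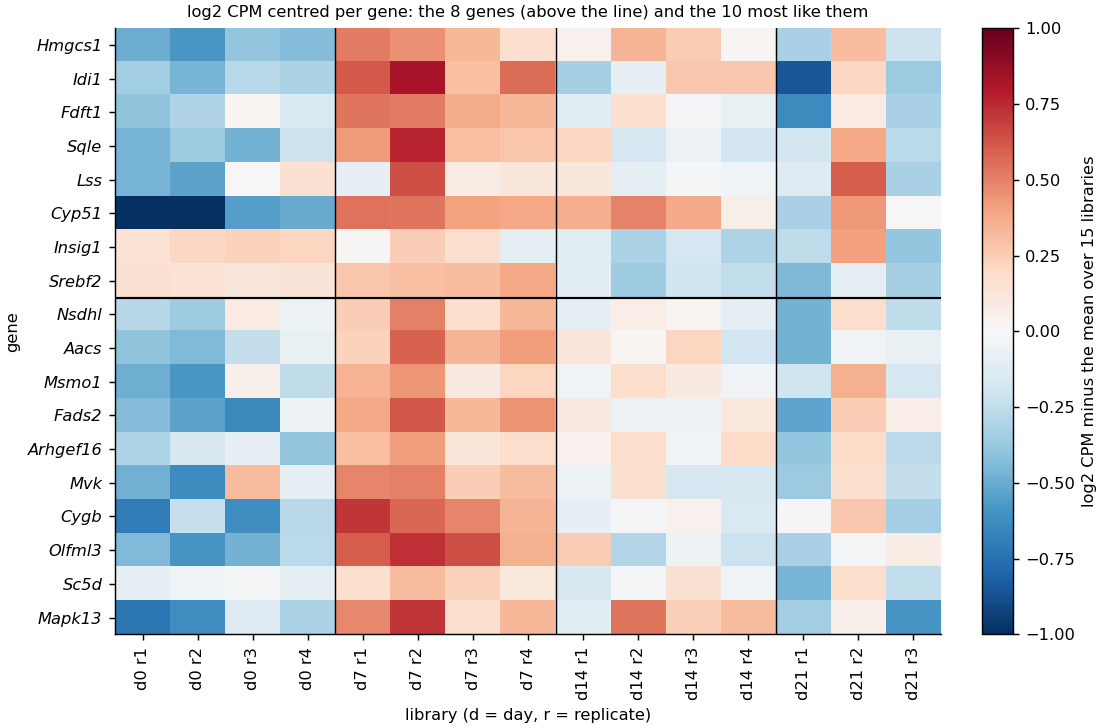
Log2 CPM of each gene minus its mean over the 15 libraries (colour, red above and blue below the mean) for the 8 genes above the line and the 10 genes most like them below it, with libraries in columns by day. The day 7 columns are red for the 6 enzymes above the line, apart from Lss in replicate 1, and day 21 replicate 2 is red for 7 of the 8 genes and close to the mean for Srebf2, between 2 bluer libraries.

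Other features of the libraries also differed between days. As a mean log2 difference from day 0, the 8 genes stood at -0.12 to 0.12 at day 0, 0.53 to 0.80 at day 7, 0.20 to 0.32 at day 14 and -0.13 to 0.55 at day 21. The genes of dividing cells were upregulated on each day, 6 of 6, against 8.78%, 12% and 12.4% of all genes at days 7, 14 and 21. They summed to 28.6 to 49.2 CPM at day 0, 154 to 216.7 at day 7, 210.7 to 285.8 at day 14 and 69.6 to 185.8 at day 21. Fibroblast genes were upregulated 4 of 6 on each day, against the same shares, and at day 14, 2 of the 6 had a log2 fold change below 0. They summed to 1311 to 1989 CPM at day 0, 4825 to 6079 at day 7, 3588 to 13132 at day 14 and 4821 to 9451 at day 21. Most of these sums came from Col1a1, Col1a2 and Col3a1. Scar-associated macrophage genes, upregulated 4, 5 and 4 of 6 against the same shares, summed to 593.8 to 664.0, 1128 to 1735, 2346 to 5303 and 2165 to 5253 CPM.

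Alveolar type 2 cell genes were downregulated 0, 5 and 9 of 9 at days 7, 14 and 21, against 7.36%, 11.2% and 10.1% of all genes. They summed to 19745 to 28268, 7813 to 22447 and 4971 to 10674 CPM. Between day 21 and day 7, 9 of the 9 were downregulated, against 4.34% of all genes. Clock genes were downregulated 9, 8 and 6 of 13 at days 7, 14 and 21, against 7.36%, 11.2% and 10.1% of all genes. The hour of collection was not given in the sources used here. Summed clock CPM was 1264 to 1996 at day 0, 669.1 to 848.9 at day 7, 602.8 to 711.0 at day 14 and 725.9 to 1034 at day 21. The part of these cells and of the clock in the levels of the 8 genes was not tested.

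Day 21 replicate 2, the library with the highest level of each of the 8 genes at that day, also had the highest sum of alveolar type 2 cell genes of its day, 10674 CPM against 4971 and 7974. It had the lowest sum of dividing cell genes, 69.6 CPM against 127.9 and 185.8, of fibroblast genes, 4821 against 9451 and 8308, and of scar-associated macrophage genes, 2165 against 5253 and 4916. The other 15 synthesis enzymes summed to 575.7 CPM in it, against 446.7 and 467.1. The part of these differences in its levels of the 8 genes was not tested.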

How the data were processed

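Whole-lung polyA libraries were prepared with a NEBNext Ultra kit. The authors trimmed reads with TrimGalore, aligned them to mm10 (GRCm38) with HISAT2 2.1.0, excluded reads with several alignments and counted reads per Ensembl gene with HTSeq 0.6.0, and they deposited raw counts without normalization. Tool versions are from the submitters' processing notes. Those notes also name DESeq2 1.40.2. The annotation release and the strand setting are not given in the sources used here, so reads in exons shared with a gene on the other strand cannot be told apart. Such bases make up 18.3% of the exons of Fdft1, 12.1% of Hmgcs1, 9.22% of Idi1, 3.76% of Cyp51 (with Akap9) and 3.53% of Lss.

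Symbols and exon lengths were taken from GENCODE M21, which matched 33267 of 33340 identifiers. Day and replicate were taken from the titles, which name 4, 4, 4 and 3 libraries, whereas the series' design text speaks of 3 per day. Columns of other samples numbered 0. Nothing in the labels says how many mice each library held, so p-values measure the spread between these libraries.

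Tests were run on the counts with edgeR 4.0.16 in R 4.3.3 (filterByExpr, TMM, glmQLFit, glmQLFTest, day as the only term, 15 libraries in 1 fit), and 17457 genes were tested. The thresholds, an adjusted p of 0.05 and a fold of 1.5, are those of the study's methods. Log2 CPM used a prior count of 2. The scripts were tested on simulated data. Alternatives were DESeq2 1.42.0, limma 3.58.1 voom, other scalings and filters, fits of 2 groups, a replicate block, no fold threshold, the mitochondrial share as a covariate or a restriction, and each library left out. Within-day correlations without day 21 replicate 2 were added after seeing the data.

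Named genes were the 8 members, pathway genes called against day 0 (or, for a list with none called, its 2 most abundant) and the 10 genes most like the members. Some genes are not reported here and were left out of the lists. The members and lists were chosen with earlier results of these data known. All marker lists used are named with their counts in the report, apart from those given under the other observations.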

Additional observations from a re-analysis of the deposited data

Results flagged for a closer look

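Among the 8 genes and the 20 other sterol genes called against day 0, Dixon's test marked 1 library as distant from its group in 6 of 84 groups of 4, where chance gives about 5%, and in 0 of the 24 groups of the 8 genes. In day 14 replicate 1, Vldlr was at 57.7 CPM against 42.0 to 44.0 in the other day 14 libraries. In the same library, Lrp1 was at 1272 CPM against 604.4 to 678.9. Gramd1c in day 0 replicate 4 was at 10.4 CPM against 12.7 to 12.9. Abca1 in day 0 replicate 3 was at 108.1 CPM against 129.3 to 131.0. Soat1 in day 7 replicate 2 was at 128.1 CPM against 180.3 to 190.9. Cyp7b1 in day 0 replicate 1 was at 2.72 CPM against 3.56 to 3.63.

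The change since day 0 differed between days, by the edgeR contrast of the days themselves, for 3 of the 8 genes. Between day 21 and day 7 it differed by -0.86 for Idi1, -0.70 for Fdft1 and -0.60 for Srebf2 on the log2 scale. Among the other sterol genes called against day 0, day 14 differed from day 7 by 0.60 for Lipa, 0.89 for Gramd1a, 0.65 for Abca1, 1.2 for Apoe, -0.76 for Cyp7b1 and -0.62 for Cyp39a1. Day 21 differed from day 7 by 1.16 for Scarb1, 1.34 for Mylip, -0.81 for Npc2, 1.08 for Abca1, 1.18 for Apoe and -0.83 for Cyp39a1. Mylip was called below day 0 at day 7 and above it at day 21, calls lost in 3 of 19 and 7 of 17 alternative fits.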

How the results depend on the processing

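DESeq2, total count scaling, RLE factors, both other filters, limma voom, fits of 2 groups and the mitochondrial covariate each left every call of the 8 genes against day 0 as it was. The adjusted p alone, with no fold threshold, called 4 of the 8 at day 14, 3 at day 21 and 1 between day 14 and day 7. It called 22 and 23 of the 55 other sterol genes at days 7 and 14, in place of 13 and 14. With each library left out in turn, members called ranged from 4 to 5 at day 7, 1 to 2 at day 14 (1 when replicate 2 of either group was dropped), 1 to 1 at day 21, 0 to 1 between day 14 and day 7 (1 without day 14 replicate 1) and 0 to 5 between day 21 and day 7 (0 without day 21 replicate 1 and 5 without replicate 2). Other sterol genes called ranged from 7 to 15 at day 7 (7 without day 7 replicate 1), 12 to 14 at day 14 and 13 to 16 at day 21. The sign turned for values that had not passed the test. For Lss at day 14 it was -0.14 among libraries over 3.5% mitochondrial share. With libraries left out, day 21 values ran from -0.27 (no replicate 2) to 0.27 for Idi1, from -0.31 to 0.059 (no replicate 1) for Fdft1 and from -0.077 (no replicate 2) to 0.43 for Lss. Between day 21 and day 7 they ran from -0.46 to 0.076 for Lss, being 0.076 without day 7 replicate 2 and 0.046 without day 21 replicate 3, and from -0.43 to 0.0018 (no day 21 replicate 3) for Insig1. The cause was not tested.

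With the replicate block the counts of members called were 5, 2 and 1 at days 7, 14 and 21, as without it. The numbers were not taken to pair the libraries, and the correlations between libraries cannot settle whether they do. Deviations of same-numbered libraries had a median correlation of 0.0406 (-0.244 to 0.397) over 21 pairs, and 8 were over 0.1. Different-numbered libraries had a median of -0.032, with 13 of 63 over 0.1. The 8 genes had at least 337 counts in every library, and counting error was not set apart from the spread between libraries.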

Other observations

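Marker lists of cells that a whole-lung sample can also hold gave the following counts. Over all genes tested 8.78%, 12% and 12.4% were upregulated at days 7, 14 and 21, and 7.36%, 11.2% and 10.1% were downregulated. In lists this short, counts of 0 or 1 lie close to those shares. Endothelial genes were downregulated 2, 3 and 1 of 6 at days 7, 14 and 21. Alveolar macrophage genes were downregulated 3, 2 and 2 of 8 and upregulated 0, 2 and 1 of 8. B and plasma cell genes were downregulated 0, 3 and 3 of 5, with 1 upregulated at day 21. Adipocyte genes were downregulated 0, 4 and 3 of 5, and cardiac muscle genes 0, 2 and 0 of 5 tested. The cardiac muscle genes summed to 690.9 CPM in day 21 replicate 1 against 17.2 and 21.6 in the other day 21 libraries, and to 565.5 CPM in day 7 replicate 4 against 28.9 to 56.0 in the other day 7 libraries. At day 0 they summed to 229.1 and 177 CPM in replicates 3 and 4 against 27.1 and 46.1 in replicates 1 and 2.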
